A study of Mus musculus with 16 samples.

Results

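The 10 genes described here encode enzymes of glycolysis and the 2 lactate dehydrogenase subunits that act on its end product. They are Hk1, Pfkm, Aldoa, Gapdh, Pgk1, Eno1, Eno2, Pkm, Ldha and Ldhb. They were chosen by gene symbol, were each found once among the 24972 genes of the deposited tables, and all 10 passed the filter on low values in every comparison. Glycolysis splits glucose into pyruvate in the cytosol and yields ATP and NADH. Hexokinase and phosphofructokinase commit glucose to the pathway, aldolase cleaves the sugar, and the enzymes from Gapdh to pyruvate kinase recover the energy. In the brain, lactate dehydrogenase interconverts pyruvate and lactate, and lactate passed between astrocytes and neurons has been studied as a fuel in memory tasks.

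Bulk RNA-seq was performed on microdissected CA1, CA3 and dentate gyrus (DG) of the dorsal hippocampus from mice that had, or had not, learned active place avoidance, a task in which a mouse on a rotating arena avoids a shock zone. The 16 libraries comprised 3 trained and 3 untrained of CA1, 3 trained and 2 untrained of CA3, and 3 trained and 2 untrained of DG. All animals, controls included, were ArcCreERT2::eYFPflx mice on a C57BL/6 background, aged 3 to 4 months, in which the promoter of the activity-regulated gene Arc drives an inducible Cre. Trained mice had shock trials and a retention test 24 h after the last of them, and untrained mice had the same sessions with the shock always off. Tissue was taken 60 min after the test, and the pieces of each animal were pooled by subregion. The question was how expression differed between trained and untrained mice in each subregion.

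The values are estimated counts normalized between libraries by the authors, and their sums ranged from 7607326 to 7984931. The reads behind them are unknown, so no counting interval is given. Between 3124 and 5944 genes were listed at 0 in 9 libraries and between 7567 and 9759 in the other 7, which were all 3 CA1 trained, CA3 trained 1 and 2, and both DG untrained libraries. Markers did not separate the subregions as labelled. The summed value of 5 granule cell markers (Prox1, Dsp, C1ql2, Pdzd2 and Dgkh; none at 0) was 13665 to 16814 in DG, 12699 to 16408 in CA1 and 11482 to 19342 in CA3. The 5 CA1 markers summed to 3222 to 5209.8 in CA1 untrained and 1599 to 1986 in CA1 trained libraries, against 922 to 2106 in CA3 and DG. The 5 CA3 markers summed to 496 to 1065 in CA3 and 444 to 795 elsewhere. Xist, expressed from the inactive X chromosome, lay between 7601 and 19592 in the 9 trained libraries and between 25.5 and 52.4 in 6 of the 7 untrained ones. The library labelled CA3 untrained 1 had an Xist value of 10587, although the CA1 and DG libraries of the same animal number did not exceed 26.1. The study's methods name both sexes in each training group, so the animals' labels and this transcript do not match throughout. In bulk tissue, fewer cells of a type and less RNA per cell cannot be told apart.

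In GRCm38 (GENCODE M21) coordinates, the genes lie on 7 chromosomes. Hk1 is on chromosome 10 from 62268855 to 62379908, Pfkm on chromosome 15 from 98092589 to 98132451, and Aldoa on chromosome 7 from 126795234 to 126800751. Ldha is also on chromosome 7, from 46841475 to 46855627. Gapdh (125161715 to 125166467), Eno2 (124760053 to 124769673) and Ldhb (142490249 to 142507957) are on chromosome 6. Eno1 is on chromosome 4 from 150236721 to 150248879 and Pkm on chromosome 9 from 59656368 to 59679375. Pgk1 is the only X-linked member, from 106187100 to 106203699. The tables hold a value per gene, so the splice forms of Pkm, for example, are not resolved here.

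The upstream sequences are shown for the 4 members with a single RefSeq start, because they span the range of behaviour described below, from Pgk1, which was higher in trained mice, to Ldhb, which followed none of the others. Each is the 250 bases before the start on the gene's own strand, from RefSeq (GRCm38.p6), with matches to ACGTG or GCGTG in capitals, on either strand (CACGT or CACGC). These letters are the core bound by hypoxia-inducible factors, known regulators of glycolytic genes. The regions are chrX:106186850-106187099 (plus strand) for Pgk1, chr6:125165774-125166023 (minus strand) for Gapdh, chr6:124769674-124769923 (minus strand) for Eno2 and chr6:142507958-142508207 (minus strand) for Ldhb.
Pgk1: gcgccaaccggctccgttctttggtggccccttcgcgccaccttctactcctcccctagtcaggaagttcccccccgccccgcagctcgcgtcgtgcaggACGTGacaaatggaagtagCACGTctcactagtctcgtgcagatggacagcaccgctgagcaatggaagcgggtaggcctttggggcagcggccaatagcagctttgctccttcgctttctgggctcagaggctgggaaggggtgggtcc
Gapdh: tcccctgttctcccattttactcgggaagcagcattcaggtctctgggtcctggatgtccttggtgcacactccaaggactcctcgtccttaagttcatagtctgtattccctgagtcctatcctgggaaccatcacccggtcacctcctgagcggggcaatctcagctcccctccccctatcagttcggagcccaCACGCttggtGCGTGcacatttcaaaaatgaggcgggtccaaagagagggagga
Eno2: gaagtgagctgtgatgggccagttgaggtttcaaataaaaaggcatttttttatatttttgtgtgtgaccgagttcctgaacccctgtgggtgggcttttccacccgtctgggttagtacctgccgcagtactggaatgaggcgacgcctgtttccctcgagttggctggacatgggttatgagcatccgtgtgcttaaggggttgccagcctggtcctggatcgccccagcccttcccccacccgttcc
Ldhb: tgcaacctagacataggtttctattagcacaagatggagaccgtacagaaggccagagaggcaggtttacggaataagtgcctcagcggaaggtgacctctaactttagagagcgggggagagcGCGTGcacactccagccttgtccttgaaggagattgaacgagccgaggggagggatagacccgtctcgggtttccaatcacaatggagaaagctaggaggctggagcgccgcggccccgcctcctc
Pgk1 and Gapdh held 2 matches each, Ldhb 1 and Eno2 0. All 10 members were found in the RefSeq table, with 20 starts in all, of which 15 had at least 1 match in the 250 bases before them, and some of these windows overlap. By the most upstream start alone, 6 of 10 members had a match. Among all 32851 starts of the table the share was 38.6%. That share counts every start, as the 15 of 20 do, and no share by most upstream start was computed over all genes. A match in letters describes the sequence and is not a bound site.

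Members differed in level by about an order of magnitude. Per kilobase of the principal transcript and over the 16 libraries, Aldoa, the aldolase of most tissues, had a level of 6342 ± 825 (SD, n = 16) and Gapdh, whose step makes the NADH of the pathway, 6035 ± 645. Pkm, the pyruvate kinase of brain and muscle, followed at 3028 ± 253, and Eno1, the widely expressed enolase, at 2339 ± 402. Eno2, the neuronal enolase, had a level of 1479 ± 97.0. The remaining members were Pgk1 (phosphoglycerate kinase) at 1190 ± 151, Ldhb, the lactate dehydrogenase subunit typical of heart, at 1125 ± 50.5, Pfkm (phosphofructokinase of muscle and brain) at 788 ± 67.6, Hk1, the main brain hexokinase, at 652 ± 83.9, and Ldha, the subunit typical of muscle, at 622 ± 66.8, all per kilobase. In this order, the ranges over libraries of neighbours overlapped except between Gapdh and Pkm, between Eno1 and Eno2 and between Ldhb and Pfkm. Together the members took between 0.494% and 0.670% of a library's summed value, the lowest share in CA1 untrained 2 and the highest in CA3 trained 3. The library CA3 trained 3 held the highest value of 9 of the 10 members, all but Ldhb.

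**Figure D1:**
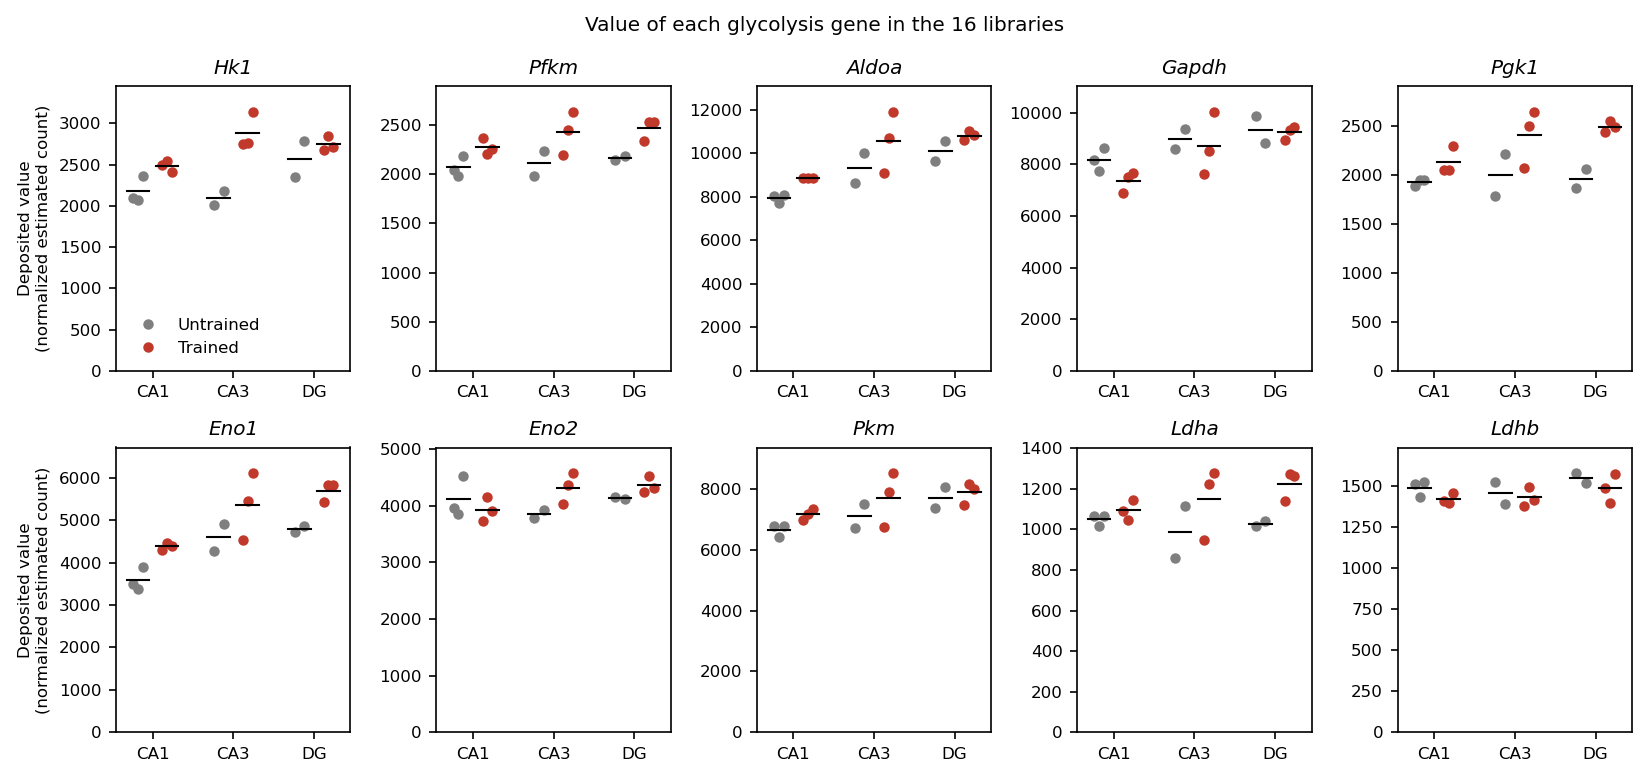
Deposited value (normalized estimated count, linear axis from 0) of each member by subregion, with a point per library in grey (untrained) or red (trained) and a black line at the group mean. Eno1 in CA1 lay between 3383 and 3901 in untrained and between 4298 and 4469.8 in trained libraries, while Ldhb stayed between 1379.9 and 1576 throughout.

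In CA1, Eno1 and Aldoa rose by small amounts in trained mice, and the other 8 members were not called. Differences are given on the log2(value + 2) scale, trained minus untrained, with their SE, and a gene is called at an adjusted p under 0.05 by limma, with Benjamini-Hochberg adjustment over all genes tested. Eno1 had values of 3498, 3383 and 3901 in untrained and 4298, 4469.8 and 4394 in trained libraries. All trained libraries lay above all untrained ones, and the log2 difference was 0.29 ± 0.05 (limma adjusted p = 0.00236). Aldoa had values of 8028, 7694 and 8077 in untrained and 8843, 8860.5 and 8839.7 in trained libraries. The trained libraries differed from each other by less than the untrained ones did, the groups did not overlap, and the log2 difference was 0.16 ± 0.04 (limma adjusted p = 0.0216). These 2 of 10 members rose and 0 fell, against 3.53% of 13588 genes tested that were higher and 1.70% that were lower. The median log2 difference of the members was 0.12 and that of all genes tested was 0.00, with 7 of 10 members and 50.1% of all genes positive.

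Gapdh in CA1 had values of 8165, 7750.3 and 8630.1 in untrained libraries and 6905, 7488 and 7649.96 in trained libraries. Every trained library lay below every untrained one, with a log2 difference of -0.16 ± 0.05 that was not called (limma adjusted p = 0.0704). Gapdh was also the reference gene of the study's RT-qPCR. Hk1 had values of 2099, 2069 and 2357 in untrained and 2493, 2545 and 2406 in trained libraries. The lowest trained library lay just above the highest untrained one, and the difference of 0.19 ± 0.06 was short of the call (limma adjusted p = 0.0541). Pfkm (0.13 ± 0.05), Pgk1 (0.14 ± 0.06) and Pkm (0.10 ± 0.04) likewise had all trained libraries above all untrained ones without being called. Eno2 (-0.06 ± 0.06), Ldha (0.06 ± 0.06) and Ldhb (-0.07 ± 0.06) overlapped. In all, 6 members had every trained library above and 1 had every trained library below the untrained ones, against 12.9% and 11.1% of genes tested.

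The call of Eno1 in CA1 held with each library left out, while that of Aldoa was lost without any of the libraries but untrained 3, with an adjusted p between 0.0607 and 0.1003. Hk1 was called without untrained 3 (0.25, limma adjusted p = 0.00349) and Gapdh without untrained 2 (-0.19, limma adjusted p = 0.0372). With all 16 libraries in one fit Aldoa lost its call (limma adjusted p = 0.213), as it did when values were rescaled to equal library sums (limma adjusted p = 0.0877), and in the latter Gapdh was called lower (-0.20, limma adjusted p = 0.00913). The CA1 groups also differed in other respects. The summed value of 8 neuron markers (none at 0) was 41743 to 43411 in untrained and 48193 to 48830 in trained libraries. The 8 astrocyte markers (none at 0) summed to 59875 to 61168 and 62172 to 63788, respectively, although the 1 of them called, Aqp4, was lower in trained libraries (-0.35, limma adjusted p = 0.00149). The 6 endothelial markers (none at 0) summed to 844 to 889.6 in untrained and 952 to 1036 in trained libraries, and the 5 red blood cell markers, of which 1 or 2 were at 0 in each library, to 185 to 224 and 334 to 529.7. In addition, 3124 to 5425 genes were listed at 0 in untrained against 8323 to 9759 in trained libraries. Xist was 26.1 to 52.4 in untrained and 17310 to 19318 in trained libraries, so training and the sex-linked transcripts cannot be told apart in CA1. The part of these in the members' differences was not tested.

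**Figure D2:**
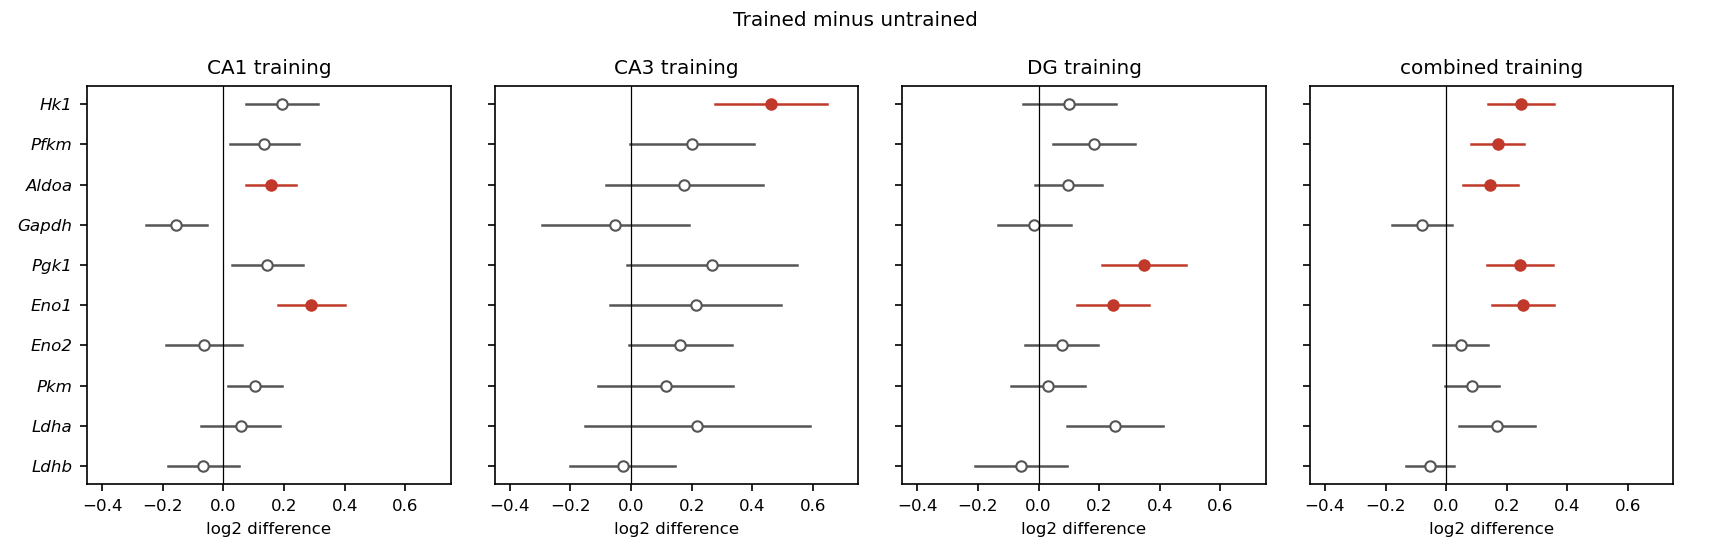
Log2 difference between trained and untrained libraries (horizontal axis, points) with its 95% confidence interval from limma (lines) for each member in CA1, CA3, DG and the fit combining the 3 subregions. Filled red points mark members called at an adjusted p under 0.05, namely Eno1 and Aldoa in CA1, Hk1 in CA3, Pgk1 and Eno1 in DG, and Hk1, Pfkm, Aldoa, Pgk1 and Eno1 in the combined fit.

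In CA3, the largest difference among the members was that of Hk1, which phosphorylates glucose on entry to the cell. Hk1 had values of 2007 and 2177 in untrained and 2746, 2766 and 3137 in trained libraries. The groups were well apart, and the log2 difference was 0.46 ± 0.08, a fold of 1.38 (limma adjusted p = 0.0353). It was the 1 member called, against 0.737% of 13848 genes tested that were higher and 0.116% that were lower. Without CA3 untrained 1, the library whose Xist value did not match, untrained 2 was the only untrained library and the difference was 0.40. Without untrained 2 the difference was 0.52. Hk1 was not called without trained 2 or trained 3. Rescaled to equal library sums, Hk1 had a limma adjusted p of 0.0642.

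No other member was called in CA3, and most overlapped between groups. Eno1 had values of 4274 and 4915 in untrained and 4522, 5449.8 and 6098 in trained libraries. Aldoa had values of 8639 and 10003 in untrained and 9101, 10709.6 and 11896 in trained libraries. In both, trained 1 lay below untrained 2, and the differences were 0.21 ± 0.12 and 0.18 ± 0.11 (limma adjusted p = 0.440 and 0.493). Pgk1 ranged from 1782 to 2639.6, Ldha from 861 to 1276 and Gapdh from 7627 to 10027 over the 5 libraries, with log2 differences of 0.27 ± 0.12, 0.22 ± 0.16 and -0.05 ± 0.11. None of these was called, nor was that of Ldhb (-0.03 ± 0.08). Pfkm (0.20 ± 0.09, limma adjusted p = 0.324) and Pkm (0.11 ± 0.10, limma adjusted p = 0.612) overlapped between groups as well. Eno2, besides Hk1, had every trained library (4026, 4360.4 and 4568) above the untrained ones (3777 and 3930.3), with a difference of 0.16 ± 0.08 that was not called (limma adjusted p = 0.337). Such separation held for 2 members above and 0 below, against 17.2% and 16.7% of genes tested. The members' median log2 difference was 0.19 and that of all genes was -0.01. The neuron markers summed to 44732 to 48643 in untrained and 49266 to 54808 in trained libraries. The 6 choroid plexus markers (none at 0) summed to 824 to 1131 in untrained and 237 to 325 in trained libraries, with Ttr (-3.29) and Clic6 (-2.55) called lower, and the 5 CA3 markers to 496 to 626 and 733 to 1065. The part of these in the values of Hk1 and the other members was not tested.

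In DG, Pgk1, which makes the first ATP of the pathway's payoff phase, and Eno1 were higher in trained libraries. Pgk1 had values of 1860.3 and 2055 in untrained and 2438, 2545 and 2483 in trained libraries. The groups were separated by more than the spread of either, and the log2 difference was 0.35 ± 0.07, a fold of 1.27 (limma adjusted p = 0.0109). Eno1 had values of 4727 and 4864 in untrained and 5417, 5834 and 5822 in trained libraries. No libraries overlapped, and the log2 difference was 0.25 ± 0.06 (limma adjusted p = 0.0263). These were the 2 members called, against 1.74% of 13935 genes higher and 1.66% lower. With all 16 libraries in one fit the call of Eno1 was lost (limma adjusted p = 0.144). Both calls were lost when any of the 3 trained libraries was left out, with adjusted p between 0.0509 and 0.134. With untrained 1 as the only untrained library, the differences of Hk1 and Ldha were 0.22 and 0.27. With untrained 3 as the only untrained library, that of Hk1 was -0.02.

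Ldha in DG had values of 1015 and 1040.4 in untrained and 1142, 1272 and 1262 in trained libraries. All trained libraries were above, and the difference of 0.25 ± 0.07 was as large as that of Eno1 but not called (limma adjusted p = 0.0717). Rescaled to equal library sums, Ldha was called (limma adjusted p = 0.0494). Pfkm was 2147 and 2190.4 in untrained and 2336, 2527 and 2535 in trained libraries, with a difference of 0.18 ± 0.06 (limma adjusted p = 0.122). Aldoa (0.10 ± 0.05) and Eno2 (0.08 ± 0.06) were also separate without a call. Hk1 in DG overlapped, with 2351 and 2789 in untrained and 2681 to 2845 in trained libraries, and so did Gapdh, Pkm and Ldhb. The log2 differences of these 4 were 0.10 ± 0.07, -0.01 ± 0.06, 0.03 ± 0.06 and -0.06 ± 0.07. Every trained library lay above for 6 members and below for 0, against 17.5% and 18.2% of genes tested. The members' median log2 difference was 0.10 and that of all genes 0.00. In DG the neuron marker sums overlapped, at 48953 to 52267 in untrained and 50055 to 51072 in trained libraries. Other lists, with no marker at 0, did not overlap. The 5 granule cell markers summed to 16630.2 to 16814 in untrained and 13665 to 14522 in trained libraries, with Prox1 (-0.31) and Dgkh (-0.21) called lower. The 6 endothelial markers summed to 776 to 900.3 and 547 to 635, with Flt1 (-0.94) called lower, and the 8 oligodendrocyte markers to 16317 to 20922 and 14495 to 15718. Between 7567 and 8636 genes were listed at 0 in untrained and between 3479 and 5944 in trained libraries. Xist was 25.5 and 52.2 in untrained and 7601 to 15810 in trained libraries. Training and the sex-linked transcripts therefore cannot be told apart in DG, where the X-linked Pgk1 was called. The part of these in the members' differences was not tested.

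Combining the 3 subregions, with the subregion as a term and libraries treated as independent although several come from the same animal, 5 of 10 members rose and 0 fell, against 6.28% of 14673 genes higher and 4.06% lower. Eno1 differed by 0.25 ± 0.05 (limma adjusted p = 0.00226), Hk1 by 0.25 ± 0.05 (limma adjusted p = 0.00425) and Pgk1 by 0.24 ± 0.05 (limma adjusted p = 0.00462). The smaller differences of Pfkm (0.17 ± 0.04) and Aldoa (0.15 ± 0.04) were called as well, with limma adjusted p of 0.0107 and 0.0359. Rescaled to equal library sums, Aldoa lost this call (limma adjusted p = 0.0719), and with the number of genes at 0 as a covariate Ldha was called as well (0.20, limma adjusted p = 0.0207). The called members thus included the entry enzyme, the committed step, aldolase, phosphoglycerate kinase and enolase. Ldha (0.17 ± 0.06, limma adjusted p = 0.0806), Pkm (0.09 ± 0.04, limma adjusted p = 0.210) and Eno2 (0.05 ± 0.04, limma adjusted p = 0.528) were not called. The differences of Gapdh (-0.08 ± 0.05) and Ldhb (-0.05 ± 0.04) were not called either, with 95% intervals of -0.18 to 0.02 and -0.13 to 0.03. No member had all trained above all untrained libraries within each of the subregions, whereas 1.62% of genes tested did. Cell type markers were also called in this fit. Of 8 neuron markers, 4 were higher in trained libraries (Stmn2 0.30, Snap25 0.27, Nefl 0.23 and Nefm 0.19) and 0 lower, and of 8 astrocyte markers 2 were lower (Aqp4 -0.30 and Gja1 -0.18) and 0 higher. Of the 5 CA3 markers, Cdh24 (0.85) and Grik4 (0.45) were higher and Coch (-1.14) was lower. The part of these in the members' differences was not tested.

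All 5 of these calls were lost when the libraries of untrained animal 1 were left out, with log2 differences of 0.10 to 0.22 and limma adjusted p from 0.0642 to 0.303. With a score of the sex-linked transcripts as a covariate, 0 members and 0 of all 14673 genes were called by limma, while 7 members and 1702 genes had an unadjusted p under 0.05. The differences of the 5 members then lay between 0.33 and 0.45 and that of Gapdh at 0.10. That score followed training (r from -0.98 to -0.79 within subregions, over 5 or 6 libraries), so training and the sex-linked transcripts cannot be told apart. Aldoa also lost its call without trained animal 2 or 3 or untrained animal 2, Pfkm without trained animal 2 (limma adjusted p = 0.0597), and Ldha was called without trained animal 1 (0.23, limma adjusted p = 0.0287). Leaving out the library labelled CA3 untrained 1 removed the call of Aldoa (limma adjusted p = 0.111), and 4 members remained called.

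The training effect was compared between subregions as an interaction. No member was called in any pair of subregions, against 2.75% of genes between CA1 and DG, 0.0273% between CA1 and CA3 and 0.164% between CA3 and DG. The largest member value was that of Hk1, whose effect was 0.36 ± 0.11 higher in CA3 than in DG (95% interval 0.13 to 0.58, unadjusted p = 0.00295, limma adjusted p = 0.198). Hk1 was also 0.27 ± 0.10 lower in its effect in CA1 than in CA3 (limma adjusted p = 0.593), as was Eno2 by 0.23 ± 0.09 (limma adjusted p = 0.625). Between CA1 and DG, 0 members had an unadjusted p under 0.05, and the differences in effect (CA1 minus DG) ran from -0.20 for Pgk1, -0.19 for Ldha and -0.14 for Gapdh and Eno2, through -0.05 for Pfkm, -0.0084 for Ldhb and 0.04 for Eno1, to 0.06 for Aldoa, 0.07 for Pkm and 0.09 for Hk1. Between CA1 and CA3 the other 8 members, Ldha, Pgk1, Gapdh, Pfkm, Ldhb, Aldoa, Pkm and Eno1, lay between -0.16 and 0.08. Between CA3 and DG the 9 members besides Hk1 lay between -0.08 (Pgk1) and 0.09 (Eno2), with Pkm, Aldoa, Ldhb, Pfkm, Eno1, Ldha and Gapdh in between. The calls of different members in different subregions were therefore not shown to be differences between subregions.

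Between subregions as labelled, with training as a term, Eno1, Aldoa and Gapdh were lower in CA1 than in DG. The granule cell marker sums of CA1 and DG overlapped, as given above. All 10 members had a negative log2 difference (CA1 minus DG), with a median of -0.15 against -0.01 for all genes, and 3 were called lower, against 0.831% of 14673 genes. Eno1 was lower by 0.40 ± 0.06 (limma adjusted p = 0.00262), with values of 3383 to 4469.8 in the 6 CA1 libraries (median 4099) and 4727 to 5834 in the 5 DG libraries. Aldoa ranged from 7694 to 8860.5 in CA1 (median 8458) and from 9653 to 11009 in DG, a difference of -0.31 ± 0.05 (limma adjusted p = 0.00582). Gapdh ranged from 6905 to 8630.1 in CA1 (median 7700.1) and from 8808 to 9883 in DG, a difference of -0.27 ± 0.06 (limma adjusted p = 0.0172). For these 3 members no CA1 library reached the lowest DG library. Pkm (-0.17 ± 0.05), Hk1 (-0.18 ± 0.06) and Pgk1 (-0.13 ± 0.06) had unadjusted p under 0.05 without being called, and the lactate dehydrogenase subunits differed by -0.07 ± 0.07 (Ldha) and -0.06 ± 0.05 (Ldhb). Pfkm (-0.09 ± 0.05) and Eno2 (-0.08 ± 0.05) were not called either.

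In the trained libraries alone, Aldoa (-0.29, limma adjusted p = 0.0502) and Gapdh (-0.33, limma adjusted p = 0.0531) were not called, and in the untrained libraries alone Gapdh was at -0.19 (limma adjusted p = 0.158). Without trained animal 2, Eno1 was the 1 member called. Gapdh also lost its call without trained animal 1 or untrained animal 1 or 2, with an adjusted p between 0.0507 and 0.0547. The neuron marker sums were 41743 to 48830 in CA1 and 48953 to 52267 in DG, and their part in these differences was not tested. CA1 against CA3 gave differences in the same direction for 8 of 10 members (median -0.10). Eno1 was the 1 member called, against 0.0682% of genes lower, at -0.31 ± 0.06 (limma adjusted p = 0.0371), and Aldoa was at -0.24 ± 0.05 (limma adjusted p = 0.0527). Gapdh was at -0.19 ± 0.06 (limma adjusted p = 0.189), and Hk1 (-0.10 ± 0.06), Pgk1 (-0.11 ± 0.06), Pkm (-0.10 ± 0.05), Pfkm (-0.06 ± 0.05), Eno2 (-0.03 ± 0.05), Ldha (0.01 ± 0.07) and Ldhb (0.0089 ± 0.05) lay closer to 0. With the animal as a replicate block, which pairs the subregions of a mouse, 2 members were called, Eno1 and Aldoa (-0.25, limma adjusted p = 0.0404), and the same 2 were called without CA3 untrained 1, trained animal 1 or untrained animal 3. No member was called without trained animal 2 or 3, or untrained animal 1 or 2, where the adjusted p of Eno1 rose to between 0.0753 and 0.204. CA3 and DG differed in 0% of genes tested and in 0 members, all 10 of which had slightly negative differences (CA3 minus DG, median -0.07). They were -0.09 for Ldha, -0.08 for Eno1, Gapdh and Hk1, -0.07 for Aldoa, Pkm and Ldhb, -0.05 for Eno2, and -0.03 for Pfkm and Pgk1. Of all genes, 715 had an unadjusted p under 0.05 in that comparison, none of them a member.

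**Figure D3:**
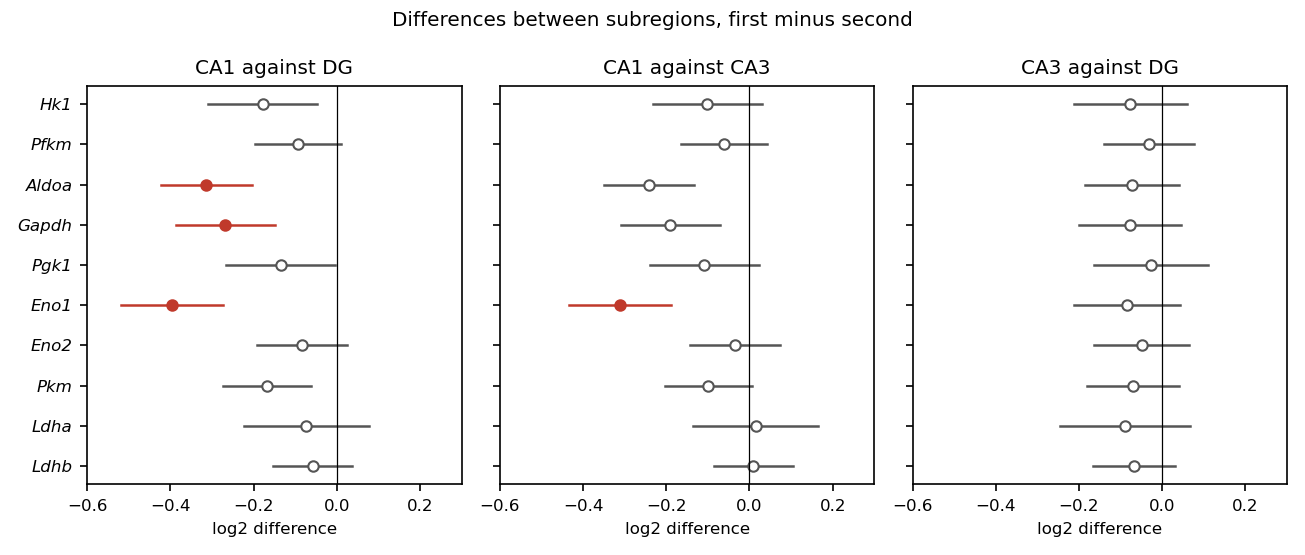
Log2 difference between pairs of subregions (horizontal axis, first minus second) with its 95% confidence interval from limma, for each member, over trained and untrained libraries together. Filled red points mark called members, Eno1, Aldoa and Gapdh between CA1 and DG (-0.40, -0.31 and -0.27) and Eno1 between CA1 and CA3 (-0.31).

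Most members varied together from library to library. Over the 16 libraries, which share animals and subregions, Aldoa and Eno1 correlated at r = 0.97, Aldoa and Pkm at 0.94, and Pfkm and Pgk1 at 0.91. Ldhb was apart from the rest, with r between -0.25 (Pgk1) and 0.39 (Gapdh) with the other members. Gapdh followed Hk1 (r = 0.27), Pfkm (0.37), Pgk1 (0.37) and Ldha (0.38) loosely, and the correlations rose to 0.39, 0.70, 0.62 and 0.71 when each library was taken relative to its group mean. The 5 genes other than members whose log2 values were most like the mean of the members' standardized values, of 14673 genes over 16 libraries, were Gpi1 (r = 0.95), Tuba4a (0.95), Tpi1 (0.94), Pgam1 (0.94) and Akr1a1 (0.94). Gpi1 (glucose-6-phosphate isomerase), Tpi1 (triosephosphate isomerase) and Pgam1 (phosphoglycerate mutase) are the glycolytic enzymes of the steps that the 10 members leave out. Tuba4a is an alpha-tubulin and Akr1a1 an aldehyde reductase.

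**Figure D4:**
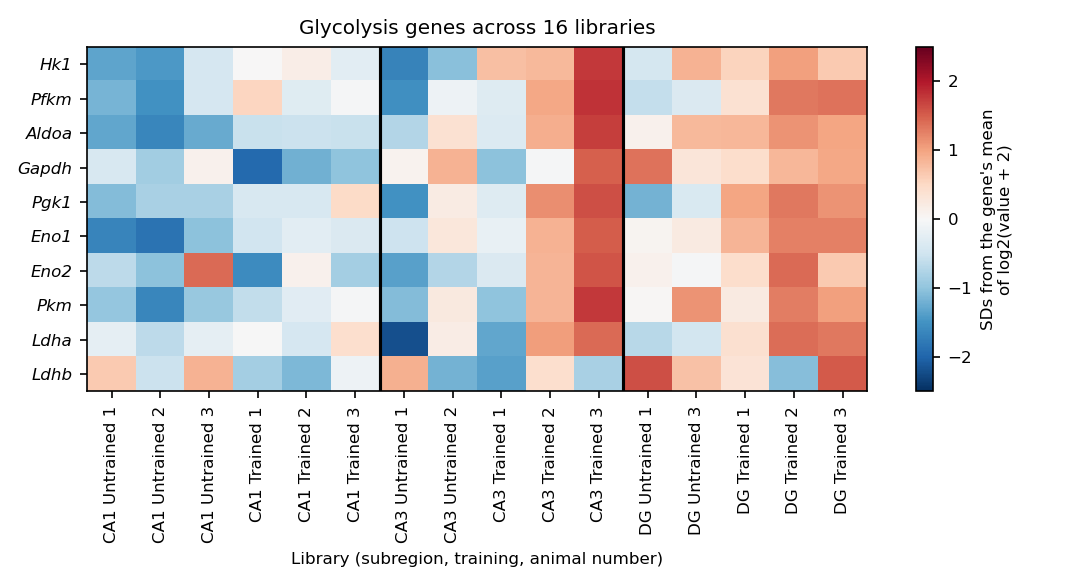
Log2(value + 2) of each member in each library, in SDs from the gene's own mean over the 16 libraries (red high, blue low), with libraries along the horizontal axis ordered by subregion, training and animal number. CA3 trained 3 was the highest library for 9 members, and the row of Ldhb does not follow the others.

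Within the pairs of isoenzymes, ratios of values do not depend on the scaling of a library, and those of Eno1 over Eno2 and of Ldha over Ldhb are given as a description. They were chosen after the values and calls of these genes in the same libraries had been seen, so no test is given. In CA1, Eno1 over Eno2 was 0.885, 0.877 and 0.862 in untrained and 1.15, 1.08 and 1.13 in trained libraries. The groups did not overlap, with a log2 difference of 0.36. In DG the ratio was 1.14 and 1.18 in untrained and 1.28, 1.29 and 1.35 in trained libraries, again without overlap, and in CA3 the groups overlapped (1.13 and 1.25 against 1.12, 1.25 and 1.33). Averaged over subregions the log2 difference was 0.19, and between 0.16 and 0.22 with each animal left out.

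Ldha over Ldhb was 0.707, 0.712 and 0.701 in CA1 untrained and 0.774, 0.750 and 0.786 in CA1 trained libraries, which did not overlap. In DG it was 0.644 and 0.687 in untrained and 0.767, 0.909 and 0.804 in trained libraries, and in CA3 it was 0.565 and 0.802 against 0.688, 0.820 and 0.902. The averaged log2 difference was 0.23, and between 0.13 (without untrained animal 1) and 0.31 with each animal left out.

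**Figure D5:**
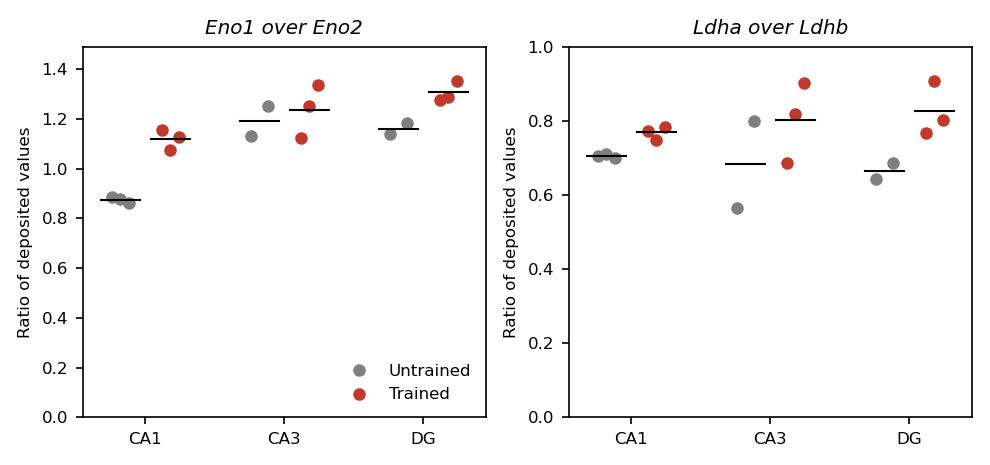
Ratio of deposited values of Eno1 over Eno2 and of Ldha over Ldhb (vertical axes from 0, not corrected for transcript length) by subregion, with a point per library in grey (untrained) or red (trained) and a black line at the mean. In CA1 and DG every trained library lies above every untrained one for both ratios, and in CA3 the groups overlap.

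The genes listed as remaining enzymes of glycolysis, a list that also holds lactate dehydrogenases such as Ldhd, were higher in trained mice where called. Of a list of 20, 16 were tested in the combined fit and 4 rose and 0 fell, against 6.28% and 4.06% of all genes, with a median log2 difference of 0.14. Pfkl, the liver-type phosphofructokinase, had mean values of 1329 ± 136 (SD, n = 3) in CA1 untrained and 1727 ± 107 (n = 3) in CA1 trained libraries, and rose in CA1 (0.38 ± 0.07, limma adjusted p = 0.00297) and combined (0.37 ± 0.05, limma adjusted p = 0.000239). Its combined call held with each animal left out. Pfkp, the platelet type, rose by 0.25 ± 0.05 in the combined fit (limma adjusted p = 0.00185), also with each animal left out. Hkdc1, a hexokinase-like gene (0.59 ± 0.18), and Ldhd, a D-lactate dehydrogenase (0.51 ± 0.14), were called at low values of 13.3 to 35.7 and 25.7 to 60.8. Gpi1 (-0.24 ± 0.05, limma adjusted p = 0.0232) and Tpi1 (-0.24 ± 0.06, limma adjusted p = 0.0273) were lower in CA1 than in DG. Both calls were lost without trained animal 1 or 2 or untrained animal 2 (limma adjusted p from 0.0598 to 0.136) and in untrained libraries alone, and that of Gpi1 also in trained libraries alone.

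Of a list of 12 genes drawn up for carriers of glucose, pyruvate and lactate, 10 were tested in the combined fit, and 2 rose and 2 fell, against the 6.28% and 4.06% of all genes. The 2 that fell include Slc2a13, which belongs to the glucose transporter family but carries myo-inositol. Slc2a1, the glucose transporter of the blood-brain barrier and astrocytes, had values of 313 to 387 in CA1 untrained and 399 to 511 in CA1 trained libraries. It rose in CA1 (0.41 ± 0.10, limma adjusted p = 0.0246) and combined (0.37 ± 0.06, limma adjusted p = 0.000911), the latter with each animal left out. In DG it was 301 to 352 in untrained and 373 to 407 in trained libraries, a difference of 0.27 ± 0.10 that was not called (limma adjusted p = 0.165). The endothelial marker sums did not move one way with training, being higher in CA1 trained and lower in DG trained libraries, as given above, and overlapping in CA3. In the combined fit 1 of the 6 was called, Vwf (0.38), and the other 5 lay between -0.19 and -0.05. Their part in the difference of Slc2a1 was not tested. Mpc2, a subunit of the mitochondrial pyruvate carrier, rose by 0.31 ± 0.09. Slc16a7, the neuronal monocarboxylate transporter, was 864 to 933 in DG untrained and 691 to 739 in DG trained libraries. It fell in DG (-0.32 ± 0.08, limma adjusted p = 0.0372) and combined (-0.26 ± 0.05, limma adjusted p = 0.00108), and Slc2a13 fell in CA1 (-0.20 ± 0.06) and combined (-0.26 ± 0.05). The combined calls of both held with each animal left out.

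The remaining lists are set against the same shares of all genes. Of 17 regulators tested in the combined fit, 0 rose and 1 fell, a share near the 4.06% of all genes. It was Egln3, a prolyl hydroxylase that marks hypoxia-inducible factors for decay (-0.47 ± 0.14, limma adjusted p = 0.0304), at values of 21.1 to 40.4, and the call was lost without any of 5 of the 6 animals. Of 9 genes of the pentose phosphate pathway, Tkt (transketolase) rose in CA1 (0.39 ± 0.09) and combined (0.26 ± 0.07), and Taldo1 (transaldolase) rose in DG (0.54 ± 0.11, limma adjusted p = 0.0170). Of 15 glycogen genes, 2 rose in the combined fit, Pygm, a glycogen phosphorylase (0.34 ± 0.10), and Pgm2, a phosphoglucomutase (0.30 ± 0.07). None of 11 genes of the pyruvate dehydrogenase complex and its regulators and none of 10 genes of the NADH shuttles was called for training, with median combined log2 differences of 0.06 each, and Mdh2, the mitochondrial malate dehydrogenase, was lower in CA1 than in DG (-0.19 ± 0.05, limma adjusted p = 0.0301). That call was lost with the animal as a replicate block (limma adjusted p = 0.0623), in each training group alone, and without any of the animals but untrained 1. With the sex-linked covariate 0 genes of these lists were called. Of the CA1 and DG calls in the lists, that of Pfkl was the only one to hold with each library left out. With each of the 6 animals left out in turn, the combined calls of Tkt and Egln3 were lost in 5 fits. Those of Hkdc1, Ldhd, Mpc2 and Pygm were lost in 4, and that of Pgm2 in 1.

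Some members have near-identical copies that could share reads with them. Eno1b, a copy of Eno1, was listed at 58.9 to 122 in the 16 libraries, against 3383 to 6098 for Eno1, and Aldoart1 and Aldoart2, copies of Aldoa, at no more than 10.3. RefSeq holds 3 pseudogenes named for each of Aldoa, Gapdh, Pgk1 and Ldha and 1 named for Ldhb, and no gene of the tables bears such a name. How reads were divided among copies is not given in the sources used here, nor whether counting used strand, which bears on Hk1 and Hk1os, a transcript of the opposite strand with a value of its own.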

How the data were processed

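Bulk RNA-seq was measured in 16 libraries, grouped by subregion and training from the sample titles. Per the labels and the study's methods, the authors converted reads with bcl2fastq 2.20, checked them with FastQC, aligned them with STAR to GRCm38 (the build in the labels), quantified genes with Salmon and used DESeq2. The deposited signal per gene is a normalized estimated count. It is not whole, and whole reads could not be recovered from low values, so its depth is unknown and the test on counts used by the study was replaced by limma 3.58.1 in R 4.3.3 fitted to log2(value + 2) with robust estimation and a trend of variance on level. Genes needed a value of at least 10 in as many libraries as the smaller group held, 3 in CA1 and 2 elsewhere. Training was compared within each subregion and in a combined fit with subregion as a term, and subregions and interactions were compared in fits of all libraries. The method was tested on simulated data. P-values cover the spread between libraries, which fits over several subregions treat as independent although an animal gave up to 3 of them.

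The 10 members and the pathway and marker lists were chosen with earlier results of these data known. All members are named in each comparison, with list genes called for training, up to 2 called genes of each list between subregions, and the 5 genes most like the members' mean profile. Levels per kilobase used the length of the principal GENCODE M21 transcript. The alternatives were median-of-ratios rescaling, a pseudocount of 0.5, other filters, all libraries in one fit, a replicate block, the animal as a random block, a sex-linked score or the number of genes at 0 as a covariate, trained or untrained libraries alone, and each library or animal left out. Rescaling to equal sums, leaving out CA3 untrained 1, and the isoenzyme ratios were chosen after seeing the data. Counts of members within 1.5 times of each other were read as alike. Libraries of the same number in different subregions come from 1 animal per the titles, but their deviations from the group means did not follow each other (r from -0.108 to 0.0921 across genes).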

Additional observations from a re-analysis of the deposited data

Results flagged for a closer look

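Among the pathway genes, Taldo1, the transaldolase of the pentose phosphate pathway, differed between subregions in its training effect. Its values were 286 and 376 (lowest and highest) in DG untrained and 466 to 495 in DG trained libraries, against 372 to 400 in CA1 untrained and 358 to 383 in CA1 trained libraries. The effect in CA1 was lower than that in DG by -0.62 ± 0.14 on the log2 scale (limma adjusted p = 0.0231), and the call was lost without untrained animal 1 (-0.46, limma adjusted p = 0.142), untrained animal 2, or trained animal 2 or 3. No cause was tested.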

How the results depend on the processing

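Deposited values already lay on the median-of-ratios scale, so that rescaling repeated them. Members called for training went from 2 to 1 in CA1 and in DG with the replicate block and with all libraries in one fit (the calls lost were Aldoa in CA1 and Eno1 in DG), and from 1 to 3 in CA3 with the replicate block (2 higher, 1 lower) and to 0 after rescaling to equal sums. Deviations of same-numbered trained and untrained libraries correlated between -0.180 and 0.119. Libraries labelled as the same animal correlated no more closely (-0.108 to 0.0921). This measure therefore cannot tell whether the numbers pair trained with untrained mice. In the combined fit 5 members became 0 with the sex-linked covariate. Between CA1 and DG 3 became 1 in trained libraries alone, and between CA1 and CA3 1 became 2 with the animal as a replicate block or without CA3 untrained 1 and 0 in trained libraries alone. Leaving out a library or animal gave 1 to 3 members in CA1, 0 to 1 in CA3, 0 to 4 in DG, 0 to 6 combined, 1 to 3 between CA1 and DG, 0 to 2 between CA1 and CA3, and 0 between CA3 and DG and in the 3 interactions. No other alternative moved a count of members by over 1.5 times, and no other paired fit changed a count of members by that much. Members that were not called changed sign in some settings. With each library left out, Gapdh ranged from -0.16 to 0.040 in CA3 and from -0.098 to 0.069 in DG, Hk1 in DG from -0.022 to 0.22, Pkm in DG from -0.033 to 0.097, Eno2 in CA1 from -0.11 to 0.0061 and Ldhb in CA3 from -0.094 to 0.039. Gapdh was 0.012 in DG after rescaling to equal sums and 0.098 combined with the sex-linked covariate. The causes of these changes were not tested, beyond fewer libraries where some were left out. Read depth is unknown and limits what small differences can show.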
